A study of Drosophila melanogaster with 3 samples.

Results

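The peaks of a GFP-tagged nuclear factor I in fly embryos include 665 summits that lie more than 500 bp from every annotated transcription start site (TSS) and outside every annotated gene, 11.5% of the 5806 summits of the reproducible peak list. Chromatin immunoprecipitation sequencing (ChIP-seq) used Drosophila melanogaster embryos of both sexes, whole and collected at 12 to 24 h, from a transgenic line (NfI-GFP) in which GFP is fused to the C terminus of NfI. The 3 libraries are biological replicates 2, 3 and 4 of this single genotype, and all 3 shared one control, so there is no second genotype, stage or treatment. The fusion was assayed in whole animals, so each value is a mean over all embryonic tissues, and the labels do not give the promoter that drives the fusion. Annotated transposable elements were not counted as genes. Of the other reproducible summits, 1889 were intronic, 3110 lay within 500 bp of a TSS (promoter summits) and 142 were exonic.

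Nuclear factor I proteins bind DNA as dimers to a palindrome of TTGGC arms around a 5-bp spacer, and more weakly to a single arm. In Drosophila, intergenic sequence holds many enhancers, which control genes at a distance, as well as insulators, at which proteins such as CTCF set limits between neighbouring regulatory domains. A ChIP summit marks the position of highest signal within a peak and does not say which protein contacts the DNA there.

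The sequences that follow carry the main observations on sequence and are given on the plus strand of dm6 unless stated. The first is the window reaching 100 bp to each side of the intergenic summit that ranked 3 by signal, at 2L:9567407-9567607 and 757 bp upstream of jp, the junctophilin gene, with a CTCF motif and a single nuclear factor I arm in capitals.
jp: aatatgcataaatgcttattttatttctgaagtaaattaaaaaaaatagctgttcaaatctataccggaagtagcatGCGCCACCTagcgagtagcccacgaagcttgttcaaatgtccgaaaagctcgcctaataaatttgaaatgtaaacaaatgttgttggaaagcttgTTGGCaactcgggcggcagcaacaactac
One intergenic window held the full nuclear factor I palindrome, shown in capitals, at X:6741292-6741492 near the small nucleolar RNA gene snoRNA:Psi28S-3436b.
snoRNA:Psi28S-3436b: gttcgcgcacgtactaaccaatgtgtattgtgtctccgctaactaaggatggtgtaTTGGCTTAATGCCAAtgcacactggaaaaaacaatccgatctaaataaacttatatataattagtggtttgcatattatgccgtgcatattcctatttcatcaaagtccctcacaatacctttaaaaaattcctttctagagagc
Capitals in the following pair of windows mark a recurrent 7-mer family. In both, the site left of the summit reads CAGTG on the minus strand and the site right of it reads CAGTG on the plus strand, so that both read away from the summit. The windows lie at X:5696421-5696621 near lncRNA:CR42794 and at 2L:3832420-3832620 near slp2, which encodes a forkhead-domain factor of segmentation.
lncRNA:CR42794: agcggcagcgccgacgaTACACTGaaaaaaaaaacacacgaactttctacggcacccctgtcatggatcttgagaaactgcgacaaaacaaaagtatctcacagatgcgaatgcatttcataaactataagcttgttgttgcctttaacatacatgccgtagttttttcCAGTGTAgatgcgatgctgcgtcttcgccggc
slp2: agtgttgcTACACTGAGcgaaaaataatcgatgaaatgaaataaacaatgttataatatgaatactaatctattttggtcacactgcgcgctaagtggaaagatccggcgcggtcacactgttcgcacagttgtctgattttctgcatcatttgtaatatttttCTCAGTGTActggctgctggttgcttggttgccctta
CTCF motifs at other strong summits, ranked 29, 41 and 83 by signal, are shown in capitals with 14 bp on each side. They are given on the strand that carries the motif, at 3R:28672407-28672443 near Sid (minus strand), at 3R:16497509-16497545 near Gr89a (minus strand) and at 3L:14111630-14111666 near Sox21a (plus strand). These all read AGATGGCGC, while the summits ranked 35 and 55, not shown, hold the forms AGTTGGCGC and AGCTGGCGC.
Sid: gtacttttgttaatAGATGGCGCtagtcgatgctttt
Gr89a: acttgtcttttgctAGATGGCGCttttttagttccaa
Sox21a: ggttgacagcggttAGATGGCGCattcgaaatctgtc

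Each replicate list held 30000 peaks with background included, and 13037, 8464 and 5138 of them reached a q-value of 0.01 in replicates 2, 3 and 4. Read counts are not among the deposited values, so the depth is unknown. The intervals given are exact Clopper-Pearson 95% intervals and cover the counting of summits or sites only. The signal of each summit is given as relative signal, in which 1 is the median of the 5806 strongest peaks of that replicate and the value is that of the strongest peak overlapping by at least 1 bp. Medians of relative signal leave out summits without such a peak in the list of that replicate. Of the 665 summits, 31 shared such a replicate peak with another reproducible peak. Labels do not state whether the replicates came from separate collections of embryos, so their spread may be technical.

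Intergenic summits were a smaller share of the strongest peaks than of the weaker ones. They made up 8.43%, 10.9%, 11.5%, 13.4% and 13.0% of the reproducible summits in 5 equal groups from the strongest to the weakest by signal, and 22.5% of the 24193 pooled peaks below the reproducibility threshold. One was among the 20 strongest reproducible peaks, 7 among the 100 strongest and 26 among the 300 strongest. Within the 5806 strongest peaks of each replicate, 497, 829 and 882 summits were intergenic by the same rule in replicates 2, 3 and 4, or 12.7% ± 3.59 (SD, n = 3). Replicate 2 held the fewest.

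The strongest intergenic summit (2R:13035160-13035523) lay between Su(z)2, a Polycomb group gene whose nearer end was 27427 bp away, and CG13323, at 9357 bp. Its relative signal was 9.49, 15.03 and 16.2 in replicates 2, 3 and 4 (13.6 ± 3.57, SD, n = 3), and it lay 11918 bp from the TSS of CG13323. A peak between the neighbouring genes ph-d and ph-p (X:2123888-2124398) ranked only 9 by signal. Its relative signal was 6.63, 5.66 and 3.46 in replicates 2, 3 and 4, highest in replicate 2, and it carried 2 of the 665 summits.

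The summit ranked 2 by signal lay 548 bp upstream of sp3 (3R:21520202-21520535), with a relative signal of 9.09, 11.5 and 17.2 in replicates 2, 3 and 4. The summit upstream of jp (2L:9567336-9567678), which holds the CTCF motif shown above, had 9.80, 11.1 and 12.7. A summit 901 bp upstream of lncRNA:CR45643, with tara as the nearest protein-coding gene, had 3.67, 8.50 and 13.2 (3R:16222317-16222669). This last value differed more between replicates than the others named so far. The summit 3338 bp from the TSS of CycB, which encodes a mitotic cyclin, varied least among the 5 strongest, with 6.72, 7.53 and 6.78 (7.01 ± 0.452, SD, n = 3). Each of the 20 strongest had a match in every replicate's 5806 strongest, 14 lay within 2000 bp of a TSS, 13 lay upstream of the nearest TSS, and for 7 that TSS belonged to a non-coding RNA gene. In 15 of these 20 the lowest value was that of replicate 2, and in 12 the highest was that of replicate 4.

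**Figure D1:**
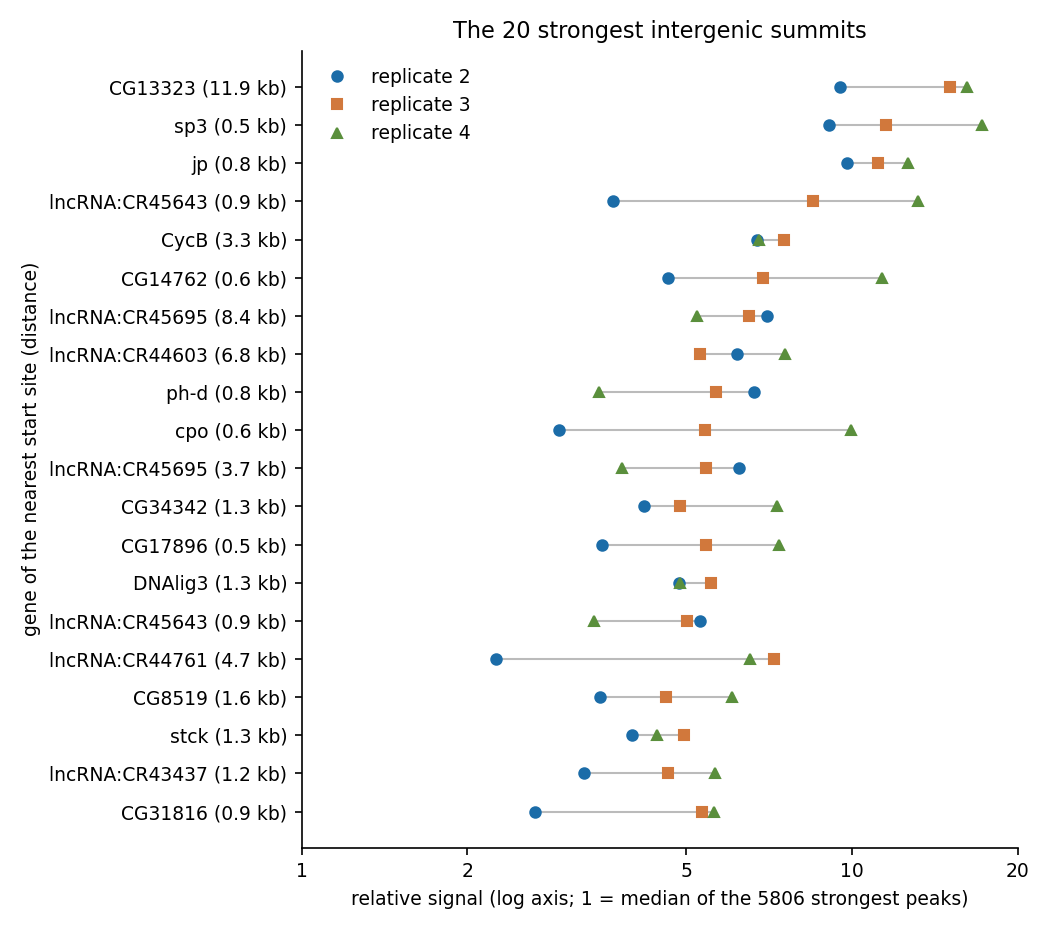
Relative signal of the 20 strongest intergenic summits in each replicate, on a log axis, ordered by pooled signal and named by the gene of the nearest TSS with its distance. Grey lines join the lowest and highest replicate, and for 15 of the 20 summits the lowest value is that of replicate 2.

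A group of strong summits lay between lncRNA:CR44603 and lncRNA:CR45695, where chinmo, which encodes a BTB zinc-finger factor of temporal cell identity, is the nearest protein-coding gene. The interval is 20.9 kb long and held 6 summits, each with a match among the strongest of every replicate. The strongest of them (2L:1638555-1639018) had a relative signal of 7.003, 6.50 and 5.23 in replicates 2, 3 and 4. The next (2L:1632673-1632998) had 6.18, 5.30 and 7.55, and the one after it (2L:1643205-1643632) had 6.22, 5.43 and 3.82. Unlike most strong intergenic summits, those at 2L:1638555-1639018 and 2L:1643205-1643632 were lowest in replicate 4.

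The interval with the most summits lay on 3L between NijA, the gene of the cell-adhesion protein ninjurin A, and CG43245. It spans 75.05 kb and held 9 summits, with mean relative signals between 0.729 and 3.47. It held the summit farthest from a TSS, at 37219 bp, and 4 others more than 30 kb away. The one other summit beyond 30 kb, at 33911 bp, lay in the interval next to vvl, which encodes a POU-domain factor of epidermis and trachea. That interval held 6 summits over 70.5 kb, with mean relative signals between 0.491 and 1.44. The interval between tRNA:Ile-TAT-1-2 and CG13898 held 8 summits. Hacd1 and Rh5 (a rhodopsin gene) flanked 5 summits within 5.89 kb, scyl, the gene of a stress-induced growth inhibitor, and lncRNA:CR44720 flanked 5, lncRNA:CR43298 and lncRNA:CR45482 flanked 5, and slf and lncRNA:CR45297 flanked 4. In all, 205 of the 665 summits (30.8%) lay within 5 kb of another, against 852 of the 1889 intronic summits (45.1%). Only summits of the same class were counted as neighbours, and the intronic class is larger. The part of class size in this difference was not tested. The 665 summits fell in 496 intervals between genes, of which 390 held 1 summit, 68 held 2 and 38 held 3 or more. The interval that holds a summit had a median length of 8.94 kb over the 665 summits, against 20.4 kb over the bases of the class.

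Density fell with distance from the nearest TSS. The sequence that met the rule amounted to 36.5 Mb, 27.2% of the chromosome arms, and held 18.2 summits per Mb. All such bases were counted, whether or not reads can be placed on them uniquely. The part of this in the densities by distance and by arm was not tested. Up to 2000 bp there were 293 summits (44.1%), or 39.7 per Mb, against 42.1 ± 9.61 per Mb among the strongest peaks of the replicates (SD, n = 3). From 2000 to 5000 bp there were 208, or 23.2 per Mb (replicates 25.6 ± 7.17). From 5000 to 10000 bp there were 92, or 12.8 per Mb (replicates 16.7 ± 5.77), and beyond 10000 bp there were 72, or 5.57 per Mb (replicates 5.80 ± 2.48). The order of the 4 bins was the same in every replicate. The median distance to a TSS was 2377 bp, with quartiles at 1103 and 4965 bp.

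**Figure D2:**
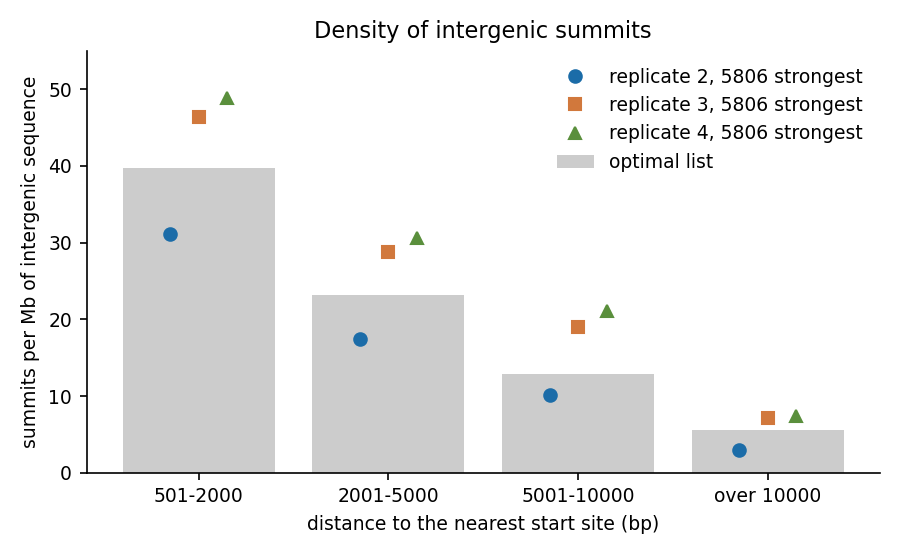
Intergenic summits per Mb of sequence that meets the rule, by distance to the nearest TSS. Bars give the reproducible list and points the 5806 strongest peaks of each replicate, and in the bar heights density falls from 39.7 to 5.57 per Mb.

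Close to the limit of 500 bp, 48 summits lay more than 500 and up to 600 bp from a TSS, with median relative signals of 0.922, 1.05 and 1.13 in replicates 2, 3 and 4. The 53 summits outside genes at more than 400 and up to 500 bp, which the rule leaves out, had 1.25, 1.37 and 1.02. A total of 435 summits (65.4%) lay upstream of the nearest TSS, against 58.5% of the bases of the class. That TSS belonged to a protein-coding gene for 455 summits, a non-coding RNA gene for 189, a tRNA gene for 16, a pseudogene for 3, a small nucleolar RNA gene for 1 and a small nuclear RNA gene for 1. The flanking genes ran in tandem for 336 summits, diverged for 189 and converged for 140. Annotated transposable elements held 3 summits, and 24 of the peaks reached into a gene although their summits did not.

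By chromosome arm, 2L held 159 summits (23.7 per Mb), 2R 94 (12.6), 3L 173 (19.1), 3R 145 (18.9), the X 88 (16.6) and chromosome 4, a small and largely heterochromatic chromosome, 6 (24.5). In the replicates 2L had 24.9 ± 7.69 and 2R had 14.4 ± 4.33 summits per Mb (SD, n = 3). Chromosome 4 had 32.6, 32.6 and 8.15 per Mb in replicates 2, 3 and 4, from only 8, 8 and 2 summits. In replicate 4 it was thus the least dense. The chromosome 4 summit near lncRNA:CR43437 (4:424673-424946) had a relative signal of 3.25, 4.64 and 5.64 in replicates 2, 3 and 4. The summit near zfh2, a homeobox gene, had 1.70 and 1.96 in replicates 2 and 3, that near fuss had 0.984 and 1.39, and that near Asator, the gene of a protein kinase, had 0.960 and 0.651. A further pair of summits had dati, a zinc-finger gene, as the nearest protein-coding gene, and one of them had 0.953, 1.69 and 1.07 in replicates 2, 3 and 4. Of the 6, 4 had no overlapping peak in the list of replicate 4. The full lists differed in the number of their chromosome 4 peaks, with 310 in replicate 2, 98 in replicate 3 and 7 in replicate 4, and the part of this in the missing matches was not tested.

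The share of intergenic summits found again was lowest in replicate 2. Among the 5806 strongest peaks of a replicate, 60.2% of intergenic summits had a match in replicate 2, 89.2% in replicate 3 and 86.2% in replicate 4. For intronic summits these shares were 72.9%, 89.04% and 80.8%, and for promoter summits 88.6%, 76.7% and 75.2%. Of the 665 summits, 315 (47.4%, interval 43.5 to 51.2%) were matched in all 3 replicates, 274 in 2, 73 in 1 and 3 in none. The share matched in all 3 was 54.4% of intronic and 57.6% of promoter summits and 55.3% of all reproducible summits. In the full lists of 30000 peaks, 589 intergenic summits (88.6%) had a match in all 3 replicates, against 91.9% of intronic and 84.1% of promoter summits, and the summits without one numbered 52 in replicate 2, 1 in replicate 3 and 23 in replicate 4.

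Signal at intergenic summits was also lowest in replicate 2. Median relative signal at intergenic summits was 0.773, 1.07 and 1.07 in replicates 2, 3 and 4, against 0.839, 1.08 and 1.05 at intronic and 1.22, 0.996 and 1.10 at promoter summits. Only summits with an overlapping peak entered, 613, 664 and 642 of the 665 intergenic ones in replicates 2, 3 and 4. These were 1844, 1879 and 1786 of 1889 intronic and 3046, 2982 and 2747 of 3110 promoter summits. The part of the missing summits in the medians was not tested. The difference of medians on the log2 scale, intergenic minus intronic, was −0.12, −0.01 and 0.02, with a mean of −0.03 ± 0.07 (SD, n = 3; two-sided exact sign-flip permutation test, p = 0.75). Intergenic minus promoter it was −0.66, 0.10 and −0.05, with a mean of −0.20 ± 0.41 (n = 3; the same exact permutation test, p = 0.75). With 3 replicates the smallest p of this exact test is 0.25. Neither difference exceeded the spread between replicates, and both means changed sign without replicate 2, to 0.01 and 0.03. Among the 589 summits with a value in every replicate, the lowest was that of replicate 2 for 369 and the highest that of replicate 4 for 269. The highest value was a median of 1.92 times the lowest, and 104 summits differed more than 3-fold.

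**Figure D3:**
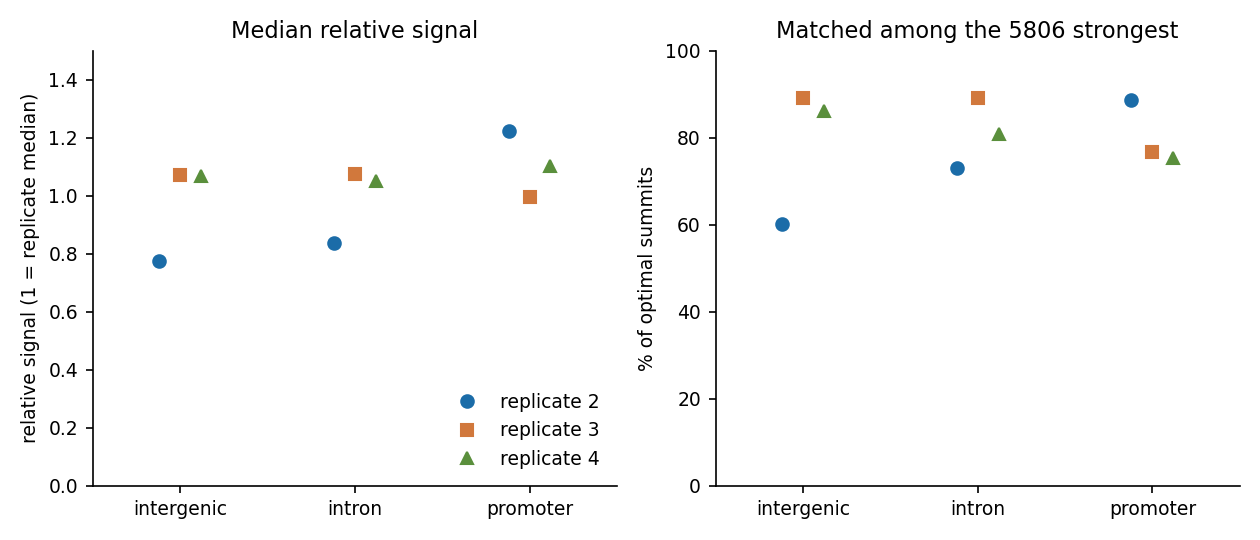
Median relative signal (left) and share of reproducible summits matched among the 5806 strongest peaks of a replicate (right), for intergenic, intronic and promoter summits, with one point for each replicate. In replicate 2 both values are lowest for intergenic and highest for promoter summits.

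Windows reaching 100 bp to each side of the summits were searched for 27 motifs on both strands, and each share was set against the mean of windows 1000 bp to the left and right. A two-sided exact binomial test compared the summit with the right-hand window, adjusted by the Benjamini-Hochberg method over the 81 tests of 3 classes of summit. Of these 81 tests, 20 (24.7%) passed an adjusted p of 0.05, and 2 of them were at intergenic summits.

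The CTCF motif (AGNTGGCGC) was more frequent at intergenic summits than beside them. It lay in 31 of the 665 windows (4.66%, interval 3.19 to 6.55%), and in 0.526% of shifted ones, an 8.86-fold difference (exact test, adjusted p = 2.01e-04, and 2.07e-07 to 0.0453 over the alternatives). Shifted windows held it 6 times on the right and 1 time on the left, so the size of the fold is imprecise. It was 5.43 to 48-fold over the alternatives, 20-fold without replicate 3 and also without replicate 4, and 22, 6.2 and 6.83-fold in the own peaks of replicates 2, 3 and 4. Of 180368 windows of this length laid end to end over sequence of the class, 0.463% held it. In the replicates' own strongest intergenic peaks it lay in 4.27% ± 0.474 of windows (SD, n = 3). At intronic summits the share was 1.64% against 0.503% in shifted windows, and at promoter summits 2.19% against 0.836%. In the replicates, intergenic exceeded intronic shares by 2.44, 2.04 and 2.69 percentage points and promoter shares by 2.72, 1.61 and 1.78 (two-sided exact sign-flip permutation test, n = 3, p = 0.25 for each, the smallest it can give). CTCF matches lay close to the summit, 42 of them within 100 bp at a median of 29.5 bp.

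Intergenic summits with a CTCF motif were mostly highest in replicate 4. Their median relative signal was 1.00, 1.15 and 2.10 in replicates 2, 3 and 4, against 0.769, 1.07 and 1.04 for the 634 without. Of the 27 with a value in all 3 replicates, 26 were highest in replicate 4, against 45.7% of the 589 intergenic summits with 3 values. The summit near Sid (a nuclease gene) had 2.37, 2.77 and 6.30, that near Gr89a (a gustatory receptor gene) had 2.13, 3.02 and 3.79, and that near Sox21a, which encodes a SOX factor, had 1.49, 1.15 and 3.86. Of the 31, 19 (61.3%) had a match among the strongest of every replicate. The motif was searched for as letters, and CTCF binding was not measured here.

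The single nuclear factor I arm TTGGC was less frequent at intergenic, intronic and promoter summits than beside them. It lay in 226 intergenic windows (34.0%) and in 45.0% of shifted windows, 0.755-fold (exact test, adjusted p = 0.00759, and 8.86e-06 to 0.685 over the alternatives), and 44.9% of all windows of the class held it. In the replicates' own peaks the share was 35.3% ± 2.17 and the ratio 0.776 ± 0.0418 (SD, n = 3). At intronic summits the ratio was 0.771 (exact test, adjusted p = 6.42e-07) and at promoter summits 0.845 (exact test, adjusted p = 1.39e-08). The scrambled control (TGCTGA) holds the letters of the longer form (TTGGCA) treated below, and not those of the arm alone. It lay in 9.62% of intergenic windows and in 11.2% of shifted ones, 0.859-fold (exact test, adjusted p = 0.667). Its ratio in the replicates' own peaks was 0.781 ± 0.121 (SD, n = 3). Being longer and rarer, the control is not matched to the arm alone, and their adjusted p-values cannot be compared directly. The control was 0.700-fold at intronic summits (exact test, adjusted p = 0.00546) and 0.760-fold at promoter summits (exact test, adjusted p = 9.24e-04). The intergenic call for TTGGC was lost without replicate 3 (exact test, adjusted p = 0.0661) and with windows reaching 200 bp to each side (0.685). One form of the CTCF motif, AGTTGGCGC, contains TTGGC, so the searches overlap. The summit windows were poorer in G and C, with a median of 35.8% against 41.3% on the right and 41.8% on the left, and the part of this difference in the motif result was not tested. The arm followed by A (TTGGCA) lay in 11.4% against 15.6% of windows (exact test, adjusted p = 0.466, and 0.0102 to 1 over the alternatives). The full palindrome lay in 1 window and in none of the shifted windows, and 0.0582% of all windows of the class held it. In the replicates' own intergenic peaks it lay in 0.604%, 0.121% and 0.113% of windows in replicates 2, 3 and 4. The reproducible summit with the palindrome, near snoRNA:Psi28S-3436b, ranked 282 of 665 by pooled signal.

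The site of DREF and BEAF-32 (TATCGATA) was in 9 intergenic windows (1.35%) and in 0.301% of shifted ones (exact test, adjusted p = 0.502, and 0.0198 to 1 over the alternatives), while 8.23% of promoter windows held it. The Forkhead motif TGTTTAC lay in 5.26% against 3.16% (exact test, adjusted p = 0.124, and 0.0215 to 1 over the alternatives). The remaining motifs, among them those of GAGA factor, Su(Hw), Zelda, Grainyhead, GATA factors and homeodomains, were not called at intergenic summits as tested here. Of these, the Snail E-box CAGGTG was called lower against left-hand windows alone (0.742-fold, exact test, adjusted p = 0.0428), and the E-box CAGCTG with a shift of 2000 bp alone (0.598-fold, exact test, adjusted p = 0.00215).

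Of all distinct 7-mers, each taken with its reverse complement, 69 (0.842%) passed an adjusted p of 0.05 at intergenic summits, 61 of them higher and 8 lower than in right-hand windows. At most 1 letter was G or C in 31 of the 69, which moves with the lower GC of the summit windows, and its part was not tested. All distinct 7-mers were tested, and only a small part of them hold at most 1 G or C. Such 7-mers were therefore a larger share of those called than of those tested, by an amount that was not calculated. Of those higher, 8 held CAGTG on one strand, and 3 of these 8 had the lowest p-values of all 7-mers. The 7-mers tested included 48 that hold CAGTG on one strand. CAGTGTA lay in 11.4% of windows at summits and 1.95% of those beside them (5.85-fold, exact test, adjusted p = 1.06e-08, and 2.79e-12 to 0.294 over the alternatives). CAGTGCA lay in 14.6% against 3.91% (exact test, adjusted p = 5.82e-08). CACTGAG lay in 9.92% against 1.58% (exact test, adjusted p = 8.08e-08). CACTGAG is CTCAGTG on the other strand and overlaps CAGTGTA in CTCAGTGTA, so the 3 form a family of overlapping letters, which was chosen after these values were seen. Leaving out replicate 3 or 4 reduced the windows to 337 and 357 and the calls to 4 and 1, and CAGTGTA then had an adjusted p of 0.0367 and 0.0668 (exact tests). CAGTGCA then had 0.104 and 0.0668 and CACTGAG 0.131 and 0.235, so that 1 of the 3 was called without replicate 3 and none without replicate 4 (exact tests). Outside the family, GAGAGAA differs from the GAGA factor motif GAGAGAG in its last letter. It lay in 7.67% of all summit windows against 2.56% of shifted ones (3-fold, exact test, adjusted p = 4.63e-04). GAGAGAG itself lay in 2.56% against 3.53% (exact test, adjusted p = 0.601).

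Sites of the family were found at every class of summit. At least one of the 3 lay in 168 of the 665 windows (25.3%), compared with 6.84% of shifted ones and 6.34% of all windows of the class. The share was 20.2% at intronic summits against 6.48% in shifted windows, and 10.3% at promoter summits against 6.35%. At the 5439 intergenic peaks below the reproducibility threshold, which took no part in the search, it was 13.2% against 6.70%. In the replicates' own strongest intergenic peaks the share was 18.5%, 26.3% and 27.7% in replicates 2, 3 and 4, lowest in replicate 2. Summits with the family had median relative signals of 0.633, 1.08 and 1.11 in replicates 2, 3 and 4, against 0.812, 1.07 and 1.05 for those without. Both sets were matched in all 3 replicates about equally often, 47.0% and 47.5%. Summits with the family lay at a median of 3395 bp from a TSS, against 2132 bp for those without.

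Sites of the family were denser 40 to 99 bp from the intergenic summits than within 40 bp of them. With overlapping letters merged into one site, there were 46 sites within 40 bp of the 665 summits, 171 from 40 to 99 bp and 85 from 200 to 399 bp, or 876, 2143 and 320.0 per Mb. Around points 1000 bp to the right the same distances held 362, 388 and 331 per Mb. In the replicates' own peaks the density from 40 to 99 bp was 1844 ± 290.0 per Mb, against 992 ± 329 within 40 bp (SD, n = 3). Family sites had the same order at intronic summits, with 663 per Mb within 40 bp and 1615 from 40 to 99 bp. At promoter summits the densities were 488 and 640 per Mb. Intergenic peaks below the threshold did not show this order, with 752 and 749 per Mb. CTCF matches had the opposite order at intergenic summits, with 476 per Mb within 40 bp and 213 per Mb from 40 to 99 bp. This order was shared by intronic (127 and 70.6) and promoter summits (187 and 77.7). These distances were set after the positions had been seen.

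**Figure D4:**
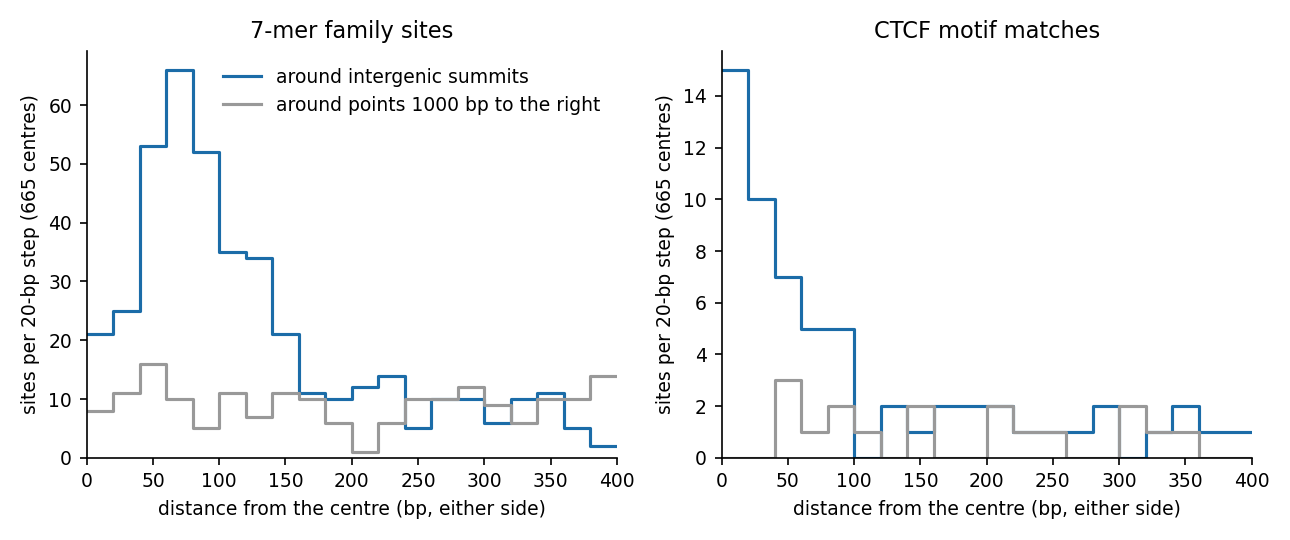
Sites of the 7-mer family (left) and CTCF motif matches (right) in steps of 20 bp from the centre, both sides added, around the 665 intergenic summits (blue) and around points 1000 bp to the right (grey). Family sites are most frequent at 60 to 79 bp from the summit, CTCF matches within 20 bp.

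The strand of the family sites differed between the 2 sides of the summit. From 40 to 99 bp, 79 of 85 sites on the left read CAGTG on the minus strand and 75 of 86 on the right read it on the plus strand, so that 90.1% (interval 84.6 to 94.1%) read away from the summit. Around points 1000 bp to the right, 12 of 31 did (38.7%, interval 21.9 to 57.8%). In the replicates' own intergenic peaks the share was 85.6%, 90.5% and 88.2% in replicates 2, 3 and 4 (88.1% ± 2.497, SD, n = 3). It was 87.2% at intronic summits, 74.9% at promoter summits and 76.3% at intergenic peaks below the threshold. At other distances the share around intergenic summits was lower. It was 71.7% (interval 56.5 to 84.0%) within 40 bp and 62.4% (interval 51.2 to 72.6%) from 200 to 399 bp. Around shifted points these shares were 52.6% and 45.5%. Within 200 bp, 57 of 665 summits (8.57%) had sites reading away on both sides, against 2 of 665 shifted points (0.301%), 5.03% of intronic and 1.03% of promoter summits. The smallest span between the sites of a pair had a median of 156 bp, with quartiles at 145 and 195 bp. The difference between the classes was not tested.

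**Figure D5:**
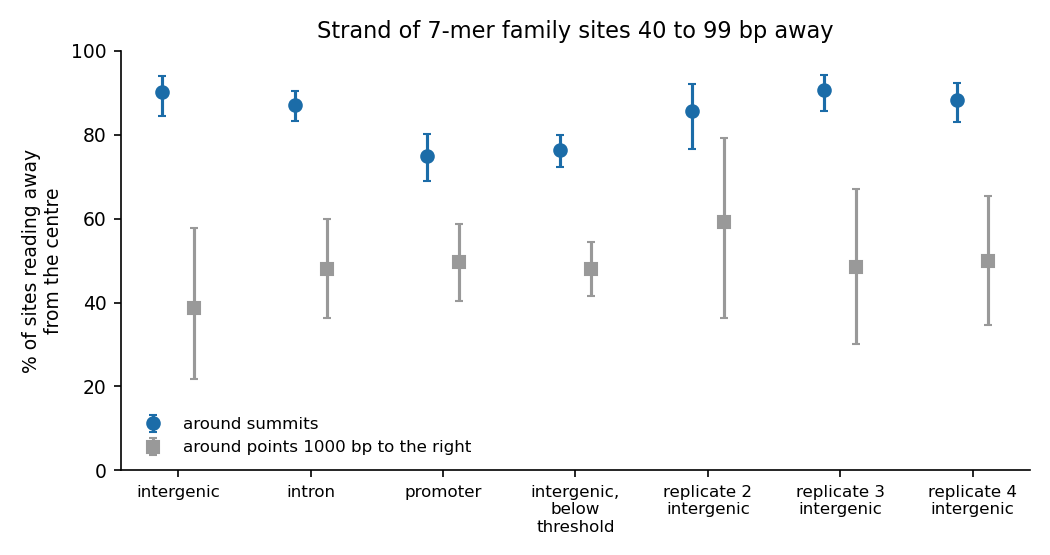
Share of 7-mer family sites 40 to 99 bp from the centre that read CAGTG away from it, with exact 95% intervals, around summits (blue) and around points 1000 bp to the right (grey). The intergenic value is 90.1% around summits and 38.7% around shifted points.

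The letters before CAGTG were rich in T. Read on the strand of 162 matches to CAGTGTA or CAGTGCA in intergenic summit windows, T filled 77.2%, 82.1% and 72.2% of positions 7, 6 and 5 bases before the match, against 37.3%, 43.4% and 22.9% for 83 matches in shifted windows. The window near lncRNA:CR42794 shown above has such a run before each of its sites, and its summit had a relative signal of 2.71, 3.92 and 6.51 in replicates 2, 3 and 4. The summit near slp2 had 1.499, 3.39 and 4.85. The sites are 150 bp apart near lncRNA:CR42794 and 156 bp apart near slp2. No factor was assigned to the family.

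Genes next to intergenic summits included members of most of the developmental lists examined. A protein-coding gene was counted where its TSS was the nearest protein-coding one to such a summit, which held for 498 of 13945 genes (3.57%). Of the measured segmentation genes 7 of 19 were counted, of homeobox genes outside the Hox clusters 12 of 63, and of neural progenitor genes 4 of 20. Wnt pathway genes had 4 of 21, muscle genes 5 of 28, salivary gland genes 2 of 11 and Hedgehog pathway genes 2 of 13. On the list drawn up for trachea 3 of 16 were counted, namely trh, vvl and Rca1. The zinc-finger genes of leg and segment patterning had 5 of 25, EGFR pathway genes 2 of 18, epidermal genes 2 of 19, Notch pathway genes 2 of 21, ecdysone response genes 2 of 22, and glial, hemocyte, fat body, gut and Dpp pathway genes 1 each of 17, 17, 13, 14 and 16. None of the 8 Hox genes and none of the 22 neuronal genes was counted, and the ribosomal protein and chemoreceptor genes had 2 of 82 and 6 of 179. The lists share genes, and genes beside long intergenic intervals have more sequence in which a summit can lie. The part of this in the counts was not tested.

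The summits beside these genes were mostly of moderate strength. The summit nearest to slp2 was the strongest of the segmentation list, and that nearest to hry, which encodes a pair-rule repressor, lay 20623 bp away with 1.54, 1.12 and 0.748 in replicates 2, 3 and 4. Near Zasp52, which encodes a Z-disc protein of muscle, the summit 13610 bp from the TSS had 1.91, 4.14 and 4.64. Near ptc, the Hedgehog receptor gene, the summit at 5291 bp had 1.39, 2.42 and 2.80, and near fz, a Wnt receptor gene, that at 1747 bp had 2.12, 3.34 and 1.77. Near tup, a LIM-homeobox gene, it had 0.558, 1.41 and 1.83, and near D, a SOX gene of neural progenitors, 1.36, 1.02 and 0.937. Replicate 2 was lowest near slp2, Zasp52, ptc and tup, and highest near hry and D.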

How the data were processed

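ChIP-seq for NfI-GFP was available from 3 libraries of 1 group, as narrowPeak lists on dm6 per the deposited listings. Each replicate list came from 1 alignment and a control shared by all 3, the pooled list from all 3 alignments, and the reproducible list of 5806 peaks from both by the irreproducible discovery rate. Not given in the sources used here are the aligner and the peak caller. A peak's signal is as the authors deposited it, without a stated scale, and the q-values are the deposited −log10 values. The labels call each sample an input control in one field and name NfI as the antibody target in another, and the libraries were treated as immunoprecipitates. An age label that conflicts with 12 to 24 h was not used.

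Genes and TSSs came from Ensembl release 115 on BDGP 6.54, whose coordinates are those of dm6, and sequence from the RefSeq copy of Release 6. The single peak on the Y in each replicate list and in the pooled list was left out. Summits were classed as promoter within 500 bp of a TSS, then exon, intron or intergenic. The motif test and the sign-flip test are as described with the results, and peaks were treated as independent in the motif test. Alternatives were other TSS distances, gene sets, overlaps, list lengths, windows and shifts, and leaving out each replicate, which for counts of summits and motifs meant keeping summits found in the strongest peaks of both remaining ones. The named summits are the 20 strongest, the flanking genes of the 8 intervals with most summits, the 5 farthest from a TSS, all on chromosome 4, all with the palindrome and up to 2 per gene list, of which a selection is given. Members, lists, motifs and named genes were chosen with earlier results of these data known. The paired window test was also run on intergenic positions drawn at random, with and without an implanted 7-mer. These positions were not matched to the summits in GC or spacing. The run therefore cannot speak to calls that follow from either. Python 3.11.15, numpy 2.4.6, scipy 1.17.1, pandas 2.3.3 and matplotlib 3.10.9 were used.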

Additional observations from a re-analysis of the deposited data

How the results depend on the processing

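The number of intergenic summits was 372 beyond 2000 bp from a TSS and 337 to 525 when a replicate was left out, and it stayed within 1.5 times 665 under the other definitions. The share matched in all 3 replicates, 47.4% as reported, was 38.6% when 50% of the peak had to overlap, 22.9%, 75.5% and 88.6% against the 3000 strongest, the 10000 strongest and the full lists, and 50.7 to 78.9% without a replicate. The log2 difference from intronic summits was 0.037 among summits matched in all 3 replicates and −0.062 to 0.0083 without a replicate, and that from promoter summits was −0.35 to 0.029 without a replicate. Intergenic motif calls numbered 5 against left-hand windows, 4 with a shift of 2000 bp and 1 to 2 without a replicate. The DREF and BEAF-32 site was 1 to 3.5-fold without a replicate. The 7-mer calls numbered 5 in windows reaching 50 bp to each side, where no member of the CAGTG family passed, 1 to 39 without a replicate, and 34 among the 527 summits whose right-hand window was centred outside every gene, an alternative chosen after seeing the data, of which 33 were among the 69. The share within another distance of a summit was 19.1% for 2 kb and 42.4% for 10 kb, and within 5 kb 26.3 to 29.0% without a replicate. Fewer windows entered the fits without a replicate, and otherwise the cause was not tested. No paired analysis was possible between groups of samples, because there is 1 group. Classes of summits were compared within each replicate, and each summit window was paired with its own shifted window. Read depth is unknown, so what it limits cannot be given.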
